A study of Mus musculus with 12 samples.

Results

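The TSS windows of 8 genes stood among the highest for acetylation of histone H3 at lysine 14 (H3K14ac) over a background library in cultured mouse neural stem and progenitor cells. The genes are Zfand5, Dyrk1a, Abhd17b, Zmiz1, Ddx3x, Cul1, Zfp704 and Mvb12b, 8 of the 27095 genes counted. They were chosen by symbol because their windows led wild-type (WT) ChIP over IgG or input in these same libraries. Their height over either background is therefore a description with no test. A TSS window is the stretch of 1000 bases that begins at the annotated transcription start, and a gene body is the whole gene, window included.

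The mark was mapped by ChIP-seq, in which chromatin is precipitated with an antibody and its DNA sequenced, in cells of the cortex and ganglionic eminences of E14.5 mouse foetuses. Differentiating cells had been moved from neurospheres to a laminin coat and a medium for cortical neurons, and proliferating cells were kept as neurospheres. Each stage gave 3 WT H3K14ac ChIP libraries, 1 H3K14ac ChIP library from Hbo1 null cells, 1 IgG ChIP library and 1 input library. The null cells had lost Hbo1 (gene Kat7), an enzyme that writes the mark. Input is chromatin sequenced without an antibody, and IgG is an antibody with no histone target. All groups share the age and the tissue, and each control is a single library. The labels name 4 WT foetuses but tie no library to one, so the p-values rest on the spread between libraries, and this spread may be technical.

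H3K14ac lies at the start of many genes, where open chromatin meets the transcription machinery. HBO1 is one of several acetyltransferases known to write it, and its complexes work at gene starts and at origins of replication. The 8 genes serve housekeeping and signalling tasks. Zfand5, Cul1 and Mvb12b act on ubiquitin-tagged proteins, Dyrk1a and Abhd17b modify other proteins, and Zmiz1 and Ddx3x act on transcription and RNA.

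RefSeq promoters (GRCm38.p6, 250 bases before to 50 after the start) were found for 7 of the 8 genes. Each printed start is the RefSeq start whose distance from the gene's edge came nearest to the shortfall of the deposited gene length, within 10 bases. This takes the shortfall to lie at the 5′ end, which the files do not state. Only the last 50 bases of such a run lie inside a window that begins there. Capitals mark any match, on either strand, to the letters of 8 motifs. These are the GC box GGGCGG, the full CRE TGACGTCA, its core TGACGT, the box CCAAT, the ETS letters CCGGAA, the NRF1 core TGCGCA, the AP-1 letters TGANTCA and the box TATAAA. The first 3 genes listed differ in GC content and motifs, and Mvb12b is shown as the one promoter with few CpG and no match. They lie at chr19:21272028-21272327 (Zfand5, plus strand), chr16:94569956-94570255 (Dyrk1a, plus), chrX:13280772-13281071 (Ddx3x, plus) and chr2:33887897-33888196 (Mvb12b, minus).
Zfand5: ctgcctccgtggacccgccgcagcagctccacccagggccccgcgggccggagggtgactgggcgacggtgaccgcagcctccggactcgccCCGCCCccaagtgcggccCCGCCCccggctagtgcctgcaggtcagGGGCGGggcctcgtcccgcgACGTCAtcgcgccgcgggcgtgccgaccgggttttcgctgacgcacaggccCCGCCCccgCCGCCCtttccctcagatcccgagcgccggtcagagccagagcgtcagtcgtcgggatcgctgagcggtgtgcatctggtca
Dyrk1a: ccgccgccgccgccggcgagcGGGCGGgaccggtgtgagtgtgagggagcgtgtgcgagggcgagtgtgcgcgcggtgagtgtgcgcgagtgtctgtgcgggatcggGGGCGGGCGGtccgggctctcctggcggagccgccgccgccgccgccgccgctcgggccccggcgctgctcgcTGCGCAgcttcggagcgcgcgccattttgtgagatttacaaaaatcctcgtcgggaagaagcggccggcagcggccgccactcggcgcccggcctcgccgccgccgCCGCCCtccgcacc
Ddx3x: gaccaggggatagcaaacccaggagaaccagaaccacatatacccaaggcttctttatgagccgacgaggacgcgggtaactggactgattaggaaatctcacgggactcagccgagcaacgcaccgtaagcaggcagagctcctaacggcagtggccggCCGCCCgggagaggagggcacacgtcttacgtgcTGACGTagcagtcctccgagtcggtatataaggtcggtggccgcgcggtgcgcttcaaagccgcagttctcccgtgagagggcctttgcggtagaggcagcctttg
Mvb12b: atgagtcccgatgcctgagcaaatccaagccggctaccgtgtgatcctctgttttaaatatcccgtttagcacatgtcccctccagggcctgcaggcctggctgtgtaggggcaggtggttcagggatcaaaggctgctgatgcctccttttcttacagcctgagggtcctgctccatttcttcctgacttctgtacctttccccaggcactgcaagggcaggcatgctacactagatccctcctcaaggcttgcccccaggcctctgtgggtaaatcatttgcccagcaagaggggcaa

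The promoters were rich in G and C, with a median of 75.0% over the 7, against 53.0% over all 32544 distinct promoters of the table. Their median number of CpG dinucleotides was 37, against 7 over all promoters. Dyrk1a held the most, 54, more than 99.6% of promoters. Cul1 held 43, Zfand5 40, Abhd17b 37, Zmiz1 26 and Ddx3x 25. Mvb12b held 4, more than only 31.0% of promoters, so the set was not uniform in this.

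GC boxes were found in 5 of the 7 (Zfand5, Dyrk1a, Abhd17b, Ddx3x and Cul1), against 35.9% of all promoters. The Zfand5 run holds 5 of them. A CRE core was found in Zfand5 and Ddx3x, against 7.55% of all promoters. The NRF1 core was found in Dyrk1a and Abhd17b, against 7.79%. CCAAT was found in Abhd17b and Zmiz1, against 37.4%, and the ETS letters in Cul1 alone, against 15.0%. The full CRE, AP-1 and TATAAA letters were in none of the 7 promoters, against 1.8%, 7.79% and 13.6% of all promoters. The CRE core also matches inside the full CRE. Other RefSeq starts of Cul1 and Dyrk1a were not used. Of these, the Cul1 start 1025 bases inside the gene's edge has an AP-1 match. The Cul1 start at the edge has 5 CpG and 0 GC boxes. These matches describe letters only.

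On depth, gene body counts summed to between 12549913 and 17074249 in the differentiating WT libraries and between 3992697 and 7611239 in the proliferating ones. Differentiating cells gave 12689734 input, 2771713 IgG and 320601 null counts, and proliferating cells 11871306 input, 2526252 IgG and 64071 null counts. Levels below are counts per 1000000 gene body counts (CPM) of the same library. Kat7, the deleted gene, held 11 gene body counts in the differentiating and 4 in the proliferating null library. These are 34.3 CPM (differentiating null) and 62.4 CPM (proliferating null), against 26.9 to 37.9 CPM in WT ChIP, and such counts of precipitated DNA do not check the deletion. The windows of 8 neural stem and progenitor markers averaged 1.82 ± 0.412 CPM per window in differentiating WT ChIP and 3.71 ± 0.815 in proliferating WT ChIP (SD, n = 3 each). Input gave 0.975 CPM (differentiating) and 1.04 CPM (proliferating) for them, and IgG gave 0.902 CPM (differentiating) and 1.78 CPM (proliferating). The windows of liver, blood, microglia, endothelial and mesenchymal markers ran from 0.946 to 1.40 CPM in WT ChIP. The 5 Y-linked genes looked at (Uty, Kdm5d, Ddx3y, Eif2s3y and Usp9y) summed to 209 CPM in differentiating WT library 3 and 47.1 in proliferating library 1, against 8.77 to 9.94 in the other WT libraries. Those libraries also had the lowest X shares of the WT ChIP, 2.34% (differentiating) and 2.49% (proliferating), against 3.31% to 3.95% in the others. The IgG libraries were alike in this, with 228 CPM (differentiating) and 187 CPM (proliferating) over the Y genes. Input was not, with 7.80 CPM (differentiating) and 6.57 CPM (proliferating) over the Y genes. Its X shares were 3.53% (differentiating) and 3.22% (proliferating). In such bulk chromatin, fewer cells with the mark and less mark per cell cannot be told apart.

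Among the genes of the ubiquitin system, Zfand5 (gene ID 22682, chr19:21271786-21286840, GRCm38) codes for an AN1-type zinc finger protein that binds ubiquitin and the proteasome. Its window held 3.51, 2.74 and 2.81 CPM in differentiating WT ChIP and 5.94, 10.5 and 7.09 CPM in proliferating WT ChIP. These rest on 44, 35 and 48 counts in the differentiating and 27, 42 and 54 counts in the proliferating libraries. Input held 1.42 CPM (18 counts, differentiating) and 1.60 CPM (19 counts, proliferating). IgG held 0 counts in differentiating cells and 1 count in proliferating cells. Every WT library lay above both backgrounds of its stage. Pooled WT ChIP stood 2.11 times over differentiating input (95% interval 1.28 to 3.68) and 4.76 times over proliferating input (2.92 to 8.17). Over the single IgG count of proliferating cells the ratio was 19.2, with an interval of 3.39 to 766. In differentiating cells it was at least 2.79-fold higher than IgG, with 3 counts per library as the floor for a count of 0, a one-sided limit below the 3.69 counts that the two-sided 95% interval allows. All such intervals are exact, and they and the floors cover counting error only. LOC115489044, on the plus strand, overlaps a stretch of window length that begins at the RefSeq edge of the gene. The Zfand5 start chosen for the promoter lies 492 bases inside that edge, and overlap with a window from there was not tested. Whether counting used strand is not given in the sources used here.

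Cul1 (26965, chr6:47453732-47526144) codes for the scaffold of SCF ubiquitin ligases. Its window held 2.87, 1.64 and 1.70 CPM in differentiating WT ChIP and 4.40, 5.76 and 5.52 CPM in proliferating WT ChIP. Input held 0.315 CPM in differentiating and 0.842 CPM in proliferating cells, so both stages lay over it by a like ratio, 6.43 (2.42 to 24.1) in differentiating and 6.25 (3.24 to 13.5) in proliferating cells. IgG gave another picture. It held 1.80 CPM (5 counts) in differentiating cells, inside the WT range, and 0.792 CPM (2 counts) in proliferating cells. The ratio to IgG was 1.12 (0.464 to 3.55) in differentiating cells and 6.65 (1.79 to 55.8) in proliferating cells. Cul1 was the one gene of the 8 whose differentiating WT libraries did not all exceed IgG.

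Mvb12b (72543, chr2:33729953-33887946) codes for a subunit of ESCRT-I, which sorts ubiquitin-tagged cargo into endosomal vesicles. Its window held 2.79, 1.49 and 1.93 CPM in differentiating WT ChIP and 4.18, 5.51 and 4.47 CPM in proliferating WT ChIP. Input was high for the set, at 1.42 CPM (18 counts) in differentiating and 1.18 CPM (14 counts) in proliferating cells. The ratio over input was 1.45 (0.864 to 2.55) in differentiating cells, an interval that includes 1, and 3.94 (2.21 to 7.55) in proliferating cells. Neither IgG library held a count in the window. WT ChIP was thus at least 1.91-fold higher than IgG in differentiating and at least 3.97-fold higher in proliferating cells.

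Dyrk1a (13548, chr16:94569947-94695519), a kinase of brain growth that phosphorylates serine, threonine and its own tyrosine, had the highest mean of the 8 at both stages. Its window held 3.67, 2.50 and 3.05 CPM in differentiating WT ChIP and 7.92, 11.3 and 6.31 CPM in proliferating WT ChIP. Input held 1.10 CPM (14 counts) in differentiating and 0.590 CPM (7 counts) in proliferating cells. The ratio over input was 2.78 (1.60 to 5.22) in differentiating cells and 13.5 (6.39 to 34.4) in proliferating cells, the highest of the set. Over the 2 IgG counts of differentiating cells it was 4.25 (1.15 to 35.5), and over the 4 IgG counts of proliferating cells 5.05 (1.92 to 18.8). The gap between the stages was thus wide over input and small over IgG.

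Abhd17b (226016, chr19:21653267-21685638) codes for a depalmitoylase, which removes fatty acids from membrane-bound signalling proteins. It lies 366426 bases from Zfand5 on the same chromosome. Its window held 3.90, 1.72 and 2.69 CPM in differentiating WT ChIP and 6.38, 7.01 and 7.75 CPM in proliferating WT ChIP. The ratio over input was 4.38 (2.15 to 10.4) in differentiating and 7.11 (3.92 to 14.2) in proliferating cells. IgG held 3 counts at each stage, giving ratios of 2.55 (0.851 to 12.5) in differentiating and 6.05 (2.02 to 29.8) in proliferating cells. Every WT library lay over both backgrounds, but the differentiating interval over IgG includes 1. A gene on the other strand, 1110059E24Rik, starts nearby.

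Of the genes that act on transcription and RNA, Zmiz1 (328365, chr14:25457875-25666743) codes for a coactivator related to the PIAS family. Its window held 3.19, 1.88 and 2.58 CPM in differentiating WT ChIP and 4.62, 6.76 and 3.94 CPM in proliferating WT ChIP. Over input the ratio was 1.90 (1.13 to 3.38) in differentiating and 4.41 (2.44 to 8.65) in proliferating cells. IgG held no count at either stage, so WT ChIP was at least 2.35-fold higher in differentiating and at least 4.30-fold higher in proliferating cells.

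Ddx3x (13205, chrX:13280496-13293988) codes for a DEAD-box helicase that unwinds RNA during translation. Its window held 3.35, 2.27 and 1.41 CPM in differentiating WT ChIP and 3.96, 10.3 and 5.39 CPM in proliferating WT ChIP. The lowest library of each stage was the one with the higher Y and lower X content. In the rest of the gene, those libraries held 0.588 CPM per kb (differentiating) and 0.460 CPM per kb (proliferating), against 0.963 to 1.07 in the other WT libraries. The ratio over input was 1.67 (0.991 to 2.99) in differentiating and 6.13 (3.36 to 12.3) in proliferating cells. IgG held no count in the window, so WT ChIP was at least 2.16-fold higher in differentiating and at least 5.51-fold higher in proliferating cells. The IgG libraries held 0.784 CPM per kb (differentiating) and 0.430 CPM per kb (proliferating) in the rest of Ddx3x. Input held 0.988 CPM per kb (differentiating) and 0.768 CPM per kb (proliferating) there. The part of X content in these values was not tested. Ddx3x has a close copy on Y, Ddx3y, and how reads that match both were counted is not given in the sources used here.

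Zfp704 (170753, chr3:9427010-9610085) codes for a zinc finger protein and was the lowest of the 8. Its window held 2.31, 0.939 and 0.996 CPM in differentiating WT ChIP and 1.98, 3.76 and 4.47 CPM in proliferating WT ChIP. The ranges overlap. Input held 3 counts in differentiating and 7 in proliferating cells, and the ratio over it was 5.79 (1.88 to 28.9) in differentiating and 6.09 (2.78 to 15.8) in proliferating cells. Over the 2 IgG counts of each stage it was 1.90 (0.502 to 16.0) in differentiating and 4.54 (1.20 to 38.4) in proliferating cells. By level alone it was 6754th of 27095 windows in differentiating and 2015th in proliferating WT ChIP. Dyrk1a was 70th in differentiating and 36th in proliferating cells. In the order of the 8 levels each gene's WT range overlapped that of the next one down, at both stages. C030034L19Rik overlaps one end of Zfp704.

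**Figure D1:**
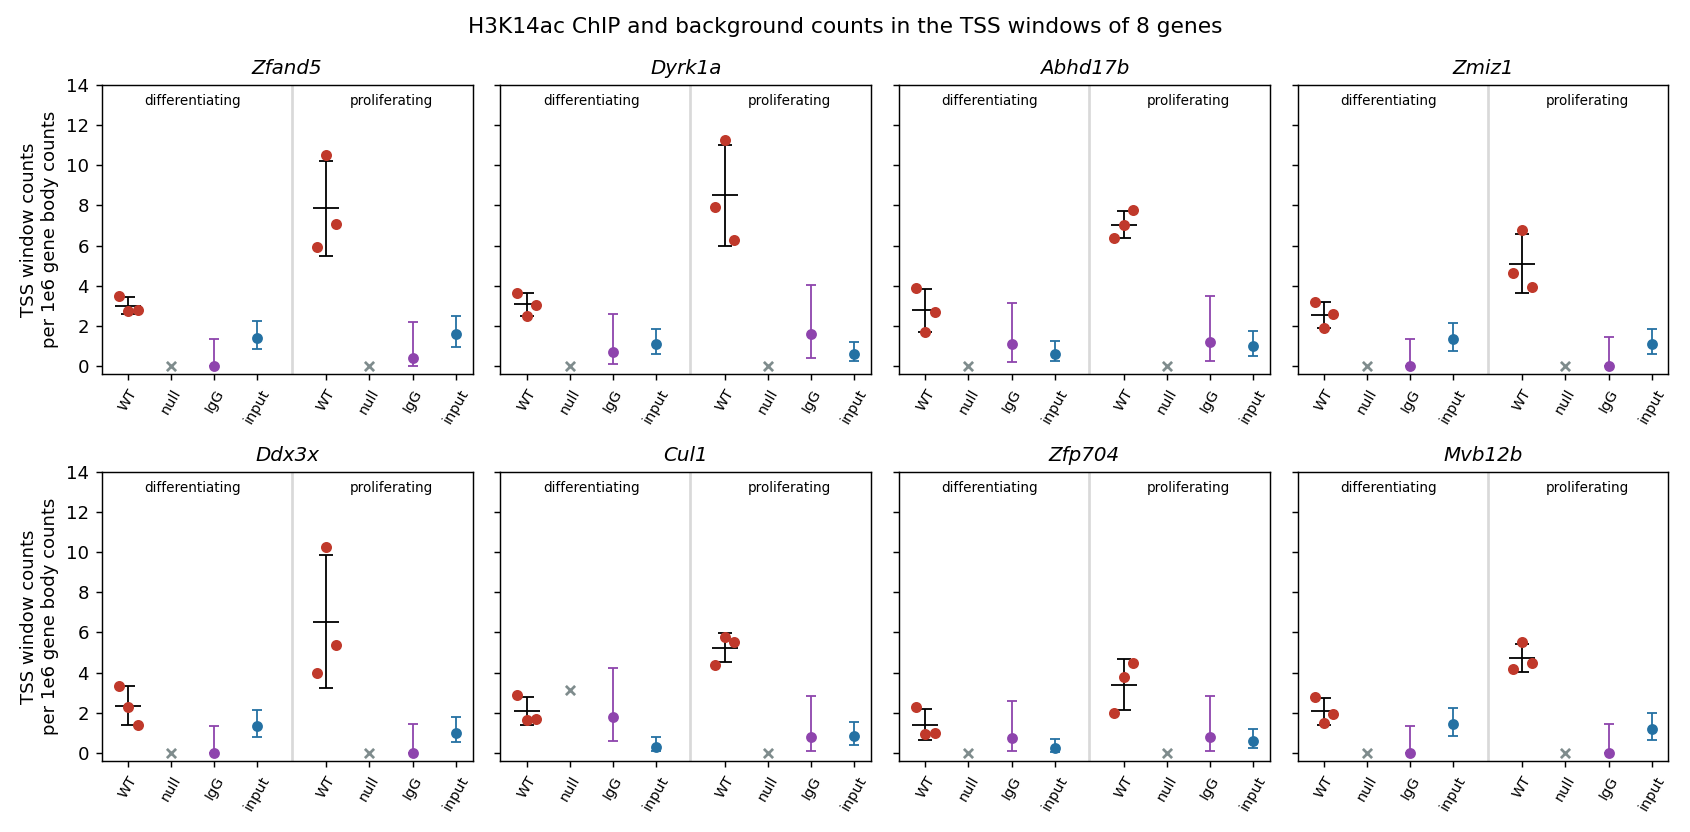
H3K14ac window level of the 8 genes in all 12 libraries, in TSS window counts per 1000000 gene body counts (vertical axis). Red points are WT libraries with their mean and SD (n = 3), crosses the Hbo1 null library, and purple and blue points IgG and input with exact 95% Poisson intervals. Only Cul1 in differentiating cells has WT points below the IgG point, but other genes, such as Zfp704 and Abhd17b, have WT points inside the IgG interval.

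By background, all WT libraries of a stage exceeded input in 8 of 8 genes at both stages, against 33.3% (differentiating) and 46.7% (proliferating) of all windows tested. They exceeded IgG in 7 of 8 genes in differentiating and 8 of 8 in proliferating cells, against 57.8% (differentiating) and 63.6% (proliferating) of windows. Among the windows with a mean of at least 10 WT counts in the stage, the shares above input were 32.8% of 24230 (differentiating) and 83.9% of 8950 (proliferating), and above IgG 53.4% (differentiating) and 78.4% (proliferating). The rule used these contrasts, so nothing is read from the counts. The 8 windows' median log2 ratio over input, with 0.5 counts added, was 1.24 in differentiating cells (range 0.48 to 2.52), against 0.06 over all those windows. In proliferating cells it was 2.47 (1.97 to 3.73), against 1.07. Over IgG the 8 windows' median was 2.63 in differentiating cells, against 0.21 over all such windows, and 3.06 in proliferating cells, against 0.98. With the genes that have no IgG count set to their lower bound (4 in differentiating, 3 in proliferating cells), the medians over IgG were 1.09 in differentiating and 2.30 in proliferating cells.

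Over both stages together, the fitted log2 ratio over input placed Cul1 9th among 21557 windows, Zfp704 14th, Dyrk1a 16th and Abhd17b 19th. Zfand5 was 399th, Ddx3x 424th, Zmiz1 698th and Mvb12b 1574th. Over IgG, Zfand5 was 58th among 13158 windows, Dyrk1a 606th, Abhd17b 906th, Zfp704 1826th and Cul1 2832nd. Ddx3x, Zmiz1 and Mvb12b had no IgG count, as did 57 of the 13158 windows (0.433%), and among those they were 1st, 2nd and 3rd by WT level. These ranks describe the values that chose the genes and carry no test.

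**Figure D2:**
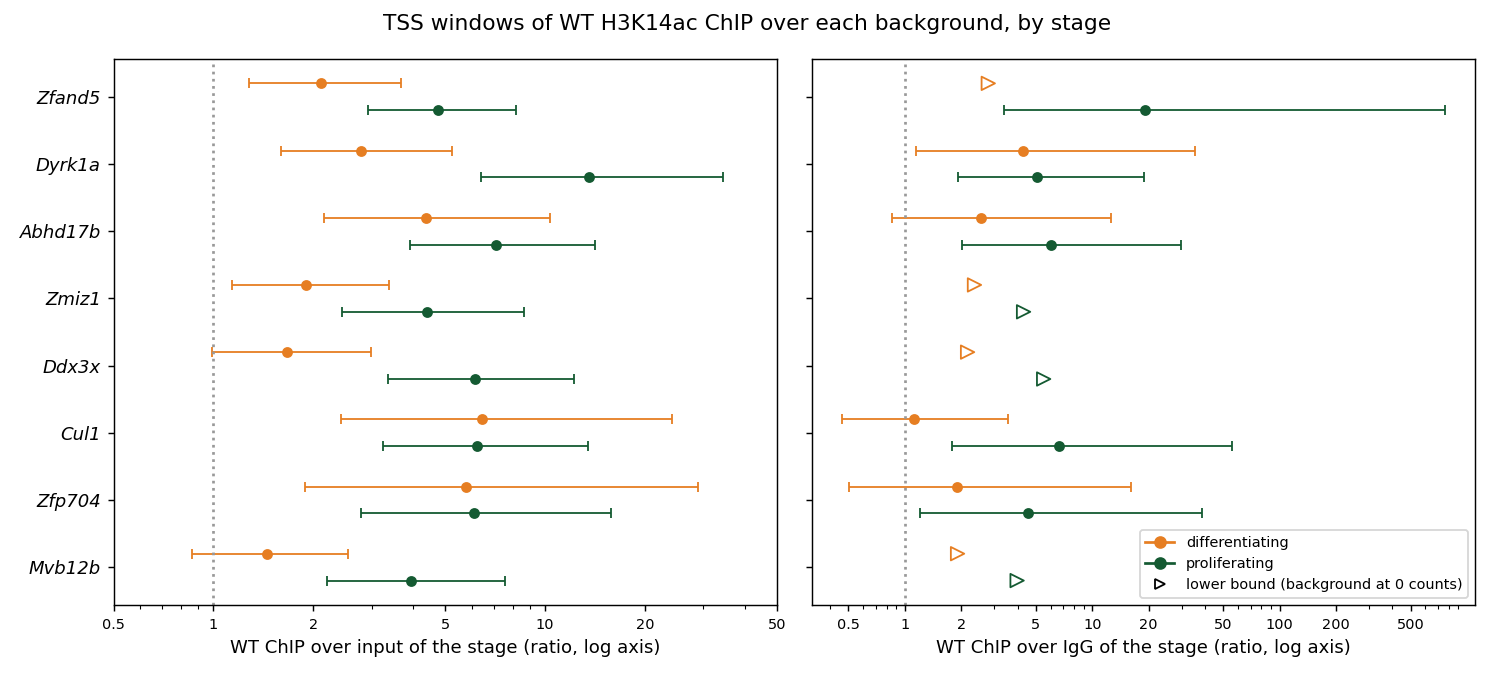
Ratio of pooled WT ChIP to input (left) and to IgG (right) in the TSS windows, on log axes, with differentiating cells above proliferating cells for each gene. Bars are exact 95% intervals for counting error, and open triangles are lower bounds where IgG had no count. Cul1 and Zfp704 are alike at both stages over input, and Dyrk1a is 2.78 in differentiating against 13.5 in proliferating cells.

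The Hbo1 null libraries held 1 count (differentiating, in Cul1) and 0 counts (proliferating) over the 8 windows together. For differentiating cells the exact 95% Poisson interval was 0.0253 to 5.57 counts. At this depth the shares of the WT libraries would give 4.87 to 8.20 counts and the input share 2.50. For proliferating cells the interval was 0 to 3.69 counts, where the WT shares would give 2.52 to 3.90 and the input share 0.507. Both intervals take in the input number and the lowest WT number, but not the highest WT number. The mean WT share would give 6.19 counts in differentiating cells, above the interval, and 3.10 in proliferating cells, inside it. Neither null library could be told from input or from the lowest WT library at this depth. In the rest of the 8 genes the null library held 226 counts in differentiating cells, against 249 to 267 at the WT shares, and 38 in proliferating cells, against 51.9 to 54.4.

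Between the stages, the question was whether the windows changed within WT ChIP. The choice of the genes rested on the height of these same WT libraries over a background, not on the difference between stages. Windows with such height were also called lower more often, so the test is not free of the choice. Lower H3K14ac in differentiating than in proliferating cells was called in 6 of the 8 windows: Zfand5, Dyrk1a, Abhd17b, Ddx3x, Cul1 and Zfp704. Of all 19477 windows tested 4.42% were called lower (edgeR quasi-likelihood test, TMM scaling, Benjamini-Hochberg adjusted p under 0.05). Of the windows called higher in WT ChIP, 21.1% (over input) and 28.7% (over IgG) were called lower. The median log2 of differentiating over proliferating was -0.87 over the 8 windows and 0.03 over all windows. None of the 8 was called higher, as 2.04% of windows were.

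Scaled by TMM, in counts per 1000000 counts of the tested windows, Dyrk1a held 113, 91.3 and 107 in differentiating and 192, 273 and 150 in proliferating WT libraries. It fell by 0.92 on the log2 scale (SE 0.26, edgeR adjusted p = 0.0179), with no overlap. Zfand5 held 108, 99.9 and 98.6 in differentiating and 144, 255 and 168 in proliferating libraries. The groups did not overlap, and it fell by 0.86 (SE 0.27, adjusted p = 0.0293). Abhd17b held 121, 62.8 and 94.5 in differentiating and 155, 170 and 184 in proliferating libraries without overlap, and it fell by 0.87 (SE 0.27, edgeR adjusted p = 0.0271). Cul1 averaged 69.4 ± 16.7 in differentiating and 126 ± 16.9 in proliferating libraries (SD, n = 3 each), again without overlap, and fell by 0.86 (SE 0.27, adjusted p = 0.0310).

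Ddx3x had the largest estimate, a fall of 0.97 (SE 0.27, edgeR adjusted p = 0.0140). It held 103, 82.8 and 49.3 in differentiating and 96.2, 249 and 128 in proliferating libraries, which overlap. Zfp704 fell by 0.87 (SE 0.30, adjusted p = 0.0489), with 71.4, 34.2 and 34.9 in differentiating and 48.1, 91.0 and 106 in proliferating libraries, which overlap too. DESeq2 did not call it (adjusted p = 0.108). For both, the overlap came from differentiating library 1 and proliferating library 1. Mvb12b did not pass the test (log2 -0.68, SE 0.27, edgeR adjusted p = 0.107), although its 86.2, 54.2 and 67.8 in differentiating libraries lay below its 102, 133 and 106 in proliferating ones. Zmiz1 did not pass either (log2 -0.45, SE 0.27, adjusted p = 0.314), with overlapping groups. In all, 5 of the 8 windows had every differentiating library below every proliferating one, against 13.4% of windows tested.

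The calls changed with the libraries in the fit. Whether this came from the values of a library left out or from the smaller number of libraries was not tested. Without differentiating library 3 none of the 6 calls stood (edgeR adjusted p from 0.0762 for Dyrk1a to 0.313 for Zfp704). In that fit 284 of all 15754 windows tested were called lower, against 860 of 19477 with all 6 WT libraries. Without differentiating library 2 Ddx3x alone was called (adjusted p = 0.0334), and without proliferating library 2 Abhd17b alone (0.0364). Over all windows, 371 of 18064 (without differentiating library 2) and 520 of 21702 (without proliferating library 2) were called lower. Without proliferating library 3 Dyrk1a (0.0324) and Ddx3x (0.0449) were called lower, as 255 of all 20107 windows were. Leaving out the first library of either stage left all 6. There, 742 of 17652 windows (without differentiating library 1) and 992 of 21225 (without proliferating library 1) were called lower. The log2 values of all 8 windows were below 0 in each of these fits, from -1.28 to -0.26. With all 6 WT libraries and replicate number as a block, only Dyrk1a (edgeR adjusted p = 0.0499) and Ddx3x (0.0404) were called. Of all 19477 windows, 495 were called lower in that fit. The labels do not say whether replicate numbers pair the samples. Among the 4 WT libraries with under 10 CPM over the Y genes, a choice made after the data were seen, Ddx3x was at log2 -0.89 (adjusted p = 0.0731) and only Zfand5 was called (-0.94, adjusted p = 0.0489).

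Scaling set the size of the difference. With gene body totals in place of TMM, the median of all windows was -0.47. All 8 genes were then called lower, as were 4996 of all 19477 windows, against 860 under TMM. Zmiz1 was at -0.95 and Mvb12b at -1.18, with the rest from -1.47 to -1.35. On that scale 7 of 8 windows did not overlap, against 33.7% of all windows. With TMM taken over the 270 windows that average at least 30 counts, none of the 5 genes left (Zfand5, Dyrk1a, Abhd17b, Zmiz1 and Ddx3x) was called, and their log2 values ran from -0.29 to 0.23. Of those 270 windows, 7 were called lower and 37 higher. The calls thus hold relative to all windows. They were not made relative to windows of high count, of which few were called lower at all. Other windows above a background were lower too. Higher WT ChIP than input was called in 2507 windows over both stages (11.6%, edgeR), and of these 21.1% were called lower in differentiating cells (median log2 -0.56). Higher WT ChIP than IgG was called in 675 windows (5.13%), of which 28.7% were called lower (median -0.62). Both sets were chosen on the same WT libraries.

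**Figure D3:**
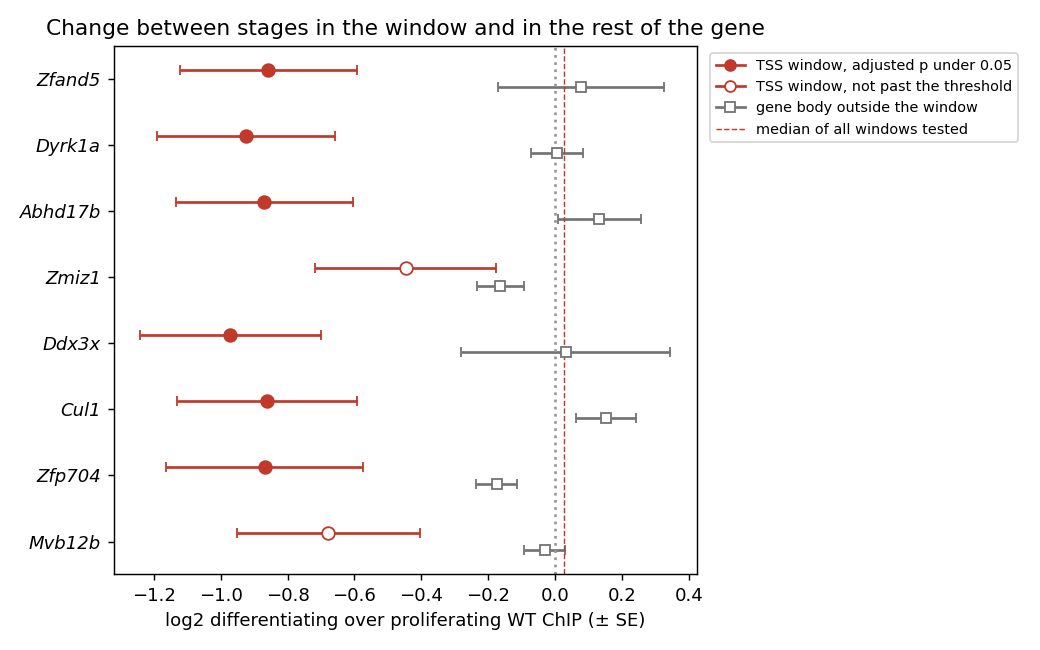
log2 of differentiating over proliferating WT ChIP (horizontal axis, ± SE) for the TSS window (red circles, filled where the adjusted p is under 0.05) and for the rest of the gene (grey squares). The windows lie from -0.97 to -0.45 and the rest of each gene from -0.17 to 0.15. The dashed line is the median of all windows.

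Outside the windows no gene was called. Over whole gene bodies none of the 8 passed edgeR's test (background 0.163%), none had an unadjusted p under 0.05 (11.2% of all gene bodies did), and none was called by DESeq2. The log2 values ran from -0.34 (Ddx3x) to 0.13 (Cul1). Without the window, gene bodies gave log2 values from -0.17 (Zfp704) to 0.15 (Cul1), a choice made after the data were seen. None was called by edgeR there (background 0.0323%), with 2 of 8 under an unadjusted p of 0.05 (Zfp704, 0.0202, and Zmiz1, 0.0463), as 10.9% of all genes were. The window held 0.930% to 1.37% of the gene body counts of Zmiz1 in differentiating and 1.70% to 3.00% in proliferating WT libraries, and 15.1% to 21.5% of those of the shorter Ddx3x in differentiating and 29.9% to 47.1% in proliferating ones.

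Per kb, the windows of WT ChIP held more counts than the rest of their own gene. For Zfand5 the window was 3.49, 3.27 and 2.50 times as dense as the rest in differentiating and 11.1, 8.14 and 7.32 times in proliferating libraries. Input gave 1.85 times in differentiating and 1.98 times in proliferating cells, the highest input values of the set. Dyrk1a was at 3.50, 2.40 and 2.93 times in differentiating and 8.30, 11.2 and 5.72 times in proliferating libraries, with 1.03 in differentiating and 0.557 in proliferating input. Ddx3x was at 3.28, 2.13 and 2.39 times in differentiating and 8.61, 10.7 and 5.11 times in proliferating libraries. Its groups overlapped under TMM and did not overlap on this ratio, nor in CPM of gene body totals. Zfp704 was near even in differentiating libraries (2.21, 0.927 and 1.00 times) and at 1.58, 3.59 and 4.05 times in proliferating ones. In 7 of the 8 genes every differentiating library lay below every proliferating one, against 35.3% of genes tested, and Zfp704 is the other. The rest of the 8 genes had 0.891 to 1.04 CPM per kb on average in differentiating WT ChIP, with 0.767 to 1.12 in input. Proliferating WT ChIP had 0.826 to 1.14 there, with 0.768 to 1.20 in input.

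**Figure D4:**
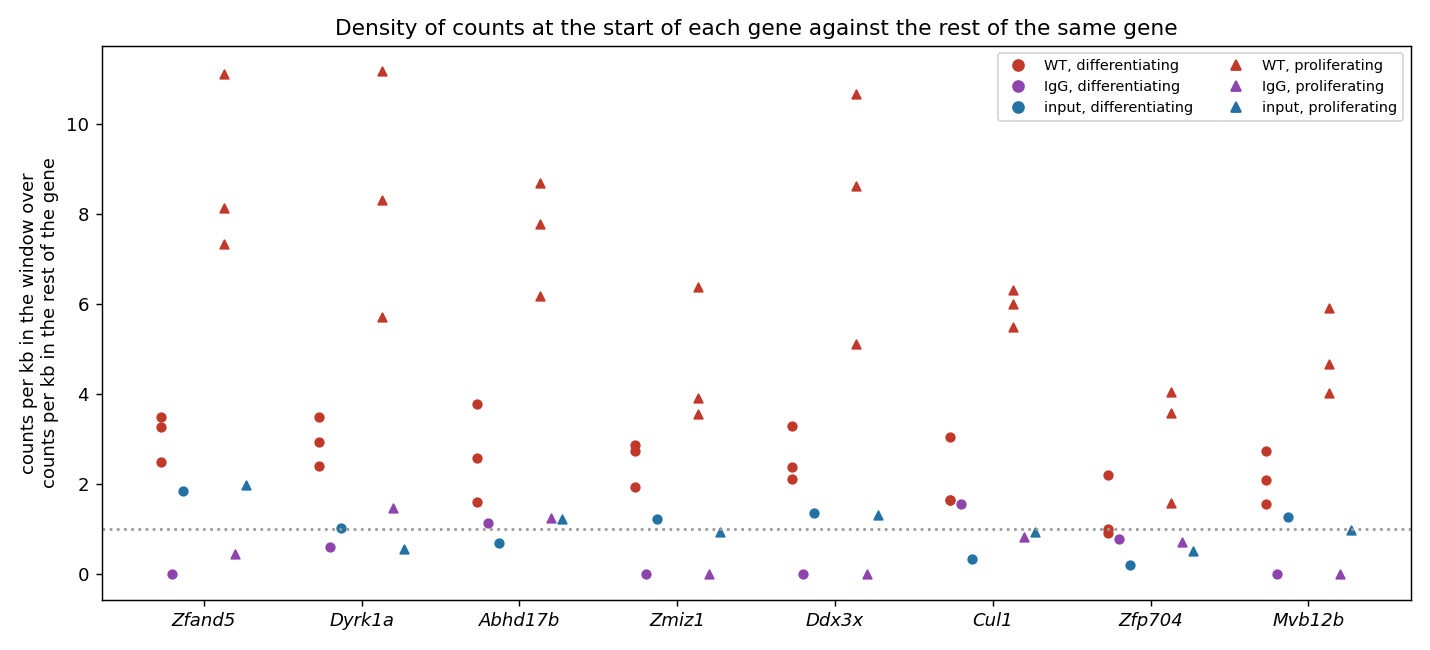
Counts per kb in the TSS window over counts per kb in the rest of the same gene (vertical axis), for each WT, IgG and input library. Circles are differentiating and triangles proliferating libraries, and the dotted line marks equal density. WT windows reach 3.78 in differentiating and 11.2 in proliferating libraries, and input stays at or below 1.98.

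Whether WT ChIP changed more than the background between stages was tested as an interaction. Against input none of the 8 passed (edgeR, background 0.0278%), and 3 of 8 had an unadjusted p under 0.05, as 10.4% of all windows did. Those were Dyrk1a (log2 -2.32, SE 0.83, edgeR adjusted p = 0.262), Ddx3x (-1.87, SE 0.73, adjusted p = 0.312) and Mvb12b (-1.44, SE 0.69, adjusted p = 0.436). Cul1 (0.03, SE 0.98) and Zfp704 (-0.09, SE 1.08) were near 0, but with the largest SE of the 8. The median was -1.21 over the 8 and -0.37 over all windows. Against IgG none of the 4 genes with IgG counts at both stages passed (background 0.0304%), and 1 had an unadjusted p under 0.05, as 7.8% of all windows did. It was Cul1 (-2.52, SE 1.26, edgeR adjusted p = 0.632). Each background had 1 library a stage, taken to vary like WT ChIP, and both tests share the 6 WT libraries. A difference between the stages beyond the background was not detectable at this depth.

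The 8 windows varied alike over the 10 WT, IgG and input libraries. Pearson's r of each with the mean of the other 7, on log2 CPM, ran from 0.772 (Cul1) to 0.944 (Zfand5). Among 37 other named windows with a mean of at least 30 counts, Spry2, an inhibitor of receptor tyrosine kinase signalling, was most like their mean profile (r = 0.988). Next came Chaserr (0.982), a noncoding RNA beside Chd2, then AW047730 (0.918), Jun (0.913), a subunit of AP-1, and Hjurp (0.906), a centromere histone chaperone. These r values are descriptions over 10 libraries that share their kind and stage. The 8 genes were chosen as high in WT ChIP over IgG or input, so part of the likeness follows from that choice. Spry2 held 4.14, 2.43 and 2.93 CPM in differentiating and 5.50, 8.52 and 9.85 CPM in proliferating WT ChIP, with 1.34 CPM in differentiating and 1.35 CPM in proliferating input. Hjurp lay much less over input, with 8.53, 7.67 and 6.50 CPM in differentiating WT ChIP against 8.20 CPM in input. In proliferating WT ChIP it held 10.8, 13.5 and 15.1 CPM, against 6.74 CPM in input.

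Relatives of the 8 genes numbered 66, and 59 had windows with enough counts. Of these, 4 were called lower in differentiating cells and 0 higher, or 6.78%, against 4.42% of all windows. Their median log2 was -0.28. Of the 14 DEAD-box helicases tested, 3 were called lower (21.4%), with a median log2 of -0.22 and a range of -1.18 to 0.47 (Ddx41). Ddx17 fell by 1.18 (SE 0.27, edgeR adjusted p = 0.00233), Ddx5 by 1.07 (SE 0.27, adjusted p = 0.00580) and Ddx6 by 0.96 (SE 0.30, adjusted p = 0.0316). Ddx5 and Ddx17 are paralogs that act in splicing, and Ddx6 acts in mRNA decay. Pias2, a SUMO ligase related to Zmiz1, fell by 0.94 (SE 0.31, adjusted p = 0.0443). Ddx17 alone of the 4 stayed called whichever library was left out. Ddx5 lost its call without differentiating library 3 (edgeR adjusted p = 0.0917) or proliferating library 3 (0.0861). Ddx6 lost it without differentiating library 3 (0.319) or proliferating library 2 (0.0607) or 3 (0.171). Pias2 lost it without differentiating library 2 (0.303) or 3 (0.108) or proliferating library 2 (0.0743) or 3 (0.255). None passed among the relatives of Zfand5, Dyrk1a, Abhd17b, Cul1, Zfp704 and Mvb12b, of which Dcaf7, a DYRK partner, came nearest (log2 -0.86, edgeR adjusted p = 0.0545).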

How the data were processed

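H3K14ac ChIP-seq of 12 libraries was read from raw counts that the authors deposited as tables of TSS windows and gene bodies. Per the submitters' processing notes, bcl2fastq and featureCounts were used on mm10; the aligner, the versions and the treatment of multi-mapping reads are not given in the sources used here. The 8 genes and all lists were chosen with earlier results of these data known. Counts were tested with the two-sided quasi-likelihood test of edgeR 4.0.16 (R 4.3.3, Benjamini-Hochberg threshold 0.05) over all features with a mean of at least 10 counts. Stage fits used the 6 WT libraries with TMM. Fits with input or IgG used gene body totals. DESeq2 1.42.0 was an alternative. Gene names, coordinates and promoters came from RefSeq (GRCm38), which matched 25204 of 27095 IDs. Besides the 8 genes, the text names the 5 windows most like them, leaving out clone and predicted names, and up to 3 relatives per gene by smallest p. Settings were tested on simulated data. Replicate numbers pair no samples in the labels. Other alternatives were scaling, count filters, a replicate block and leaving out each library.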

Additional observations from a re-analysis of the deposited data

How the results depend on the processing

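The number of windows called between stages was 1257, and 5060 with gene body totals, 588 with DESeq2, 44 with a mean of at least 30 counts, 645 in the 4 WT libraries with under 10 CPM over the Y genes (chosen after the data were seen) and 319 to 1246 leaving out a library. Gene bodies called numbered 40, and 182 with DESeq2, 7 outside the window, 446 in those 4 libraries, where Zfand5 was called (log2 -0.58, edgeR adjusted p = 0.0134), and 3 to 66 leaving out a library. Interactions called numbered 6 against input (0 with TMM, 0 with no filter, 0 to 65 leaving out a library) and 4 against IgG (1 with no filter, 0 to 4). The 8 genes' median log2 over input in proliferating cells was 1.96 with totals of TSS windows. Over IgG it was 1.36 with 2 counts added in differentiating cells, and 2.55 with totals of TSS windows and 2.30 with 2 counts added in proliferating cells. The cause of these shifts was not tested.

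With replicate number as a replicate block, 761 windows and 38 gene bodies were called between stages, with 0 interactions against input and 2 against IgG. Of the 8 genes Dyrk1a (adjusted p = 0.0499) and Ddx3x (0.0404) were then called. Deviations of same-numbered libraries correlated at 0.169, 0.0316 and 0.114 over windows and at -0.0877, 0.247 and -0.229 over gene bodies. Each proliferating library correlated best with its own number over windows, but not all did over gene bodies. The labels do not say whether the numbers pair the samples, and these correlations do not settle it.

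Values that turned sign lay mostly near 0 and none was called. With a mean of at least 30 counts, Zmiz1 was at 0.23, AW047730 at 0.16 and Hjurp at 0.39. Outside the window, Zfand5 was at 0.077, Dyrk1a at 0.0057, Abhd17b at 0.13 and Ddx3x at 0.031. Whole bodies of Dyrk1a and Mvb12b were at 0.0040 and 0.0015 with DESeq2 size factors and 0.0037 and 0.0014 with DESeq2. Leaving out a library, bodies of Dyrk1a ran from -0.074 to 0.051, of Mvb12b from -0.039 to 0.019 (0.029 in the 4 libraries) and of Abhd17b from -0.11 to 0.10. Interactions against input ran from -0.26 to 0.17 for Cul1 and from -0.59 to 0.25 for Zfp704, which was at 0.31 with TMM. Dyrk1a was at 0.056 against IgG with TMM. Cul1 over IgG in differentiating cells was at -0.21 with totals of TSS windows and -0.23 with 2 counts added. Zfp704 (adjusted p = 0.108) and Ddx6 (0.0644) were not called by DESeq2. With 1 library per background and stage and 0 to 5 IgG counts per window, depth limits every value over IgG.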

Other observations

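Summed over the 8 windows, differentiating WT libraries 1, 2 and 3 held 25.6, 15.2 and 17.2 CPM and proliferating WT libraries 1, 2 and 3 held 39.4, 60.9 and 44.9 CPM. The share of the genes' summed body counts that fell in the windows was 2.98%, 1.88% and 2.16% in differentiating and 4.43%, 6.98% and 5.10% in proliferating WT libraries. Input gave 0.909% in differentiating and 0.893% in proliferating cells, and IgG 0.587% in differentiating and 0.566% in proliferating cells. The highest window sum of the WT libraries, in proliferating library 2, came from the WT library with the fewest gene body counts, 3992697.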
